A study of Homo sapiens with 15 samples.

Results

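The miR-99/100, miR-10 and miR-125 families are encoded by the 8 genes MIR99A, MIR99B, MIR100, MIR10A, MIR10B, MIR125A, MIR125B1 and MIR125B2, which were taken by gene symbol from the 50037 genes of a small RNA count table of 15 libraries. Of the 8 genes, 7 had any count, and 4 (MIR100, MIR10A, MIR99A and MIR125B1) passed the filter on low counts and were tested. No treatment comparison called any of these 4 genes, whereas all 4 differed between the experiments in which the cells were treated. MIR100 had the lowest p of all 4099 genes in the test of experiments.

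By their labels the cells were wild-type HEK-293, a line from human embryonic kidney; the title of the series names macrophages instead. The study asked how small RNAs respond to the lipids that lipoprotein lipase (LPL) releases from very low-density lipoprotein (VLDL), and to inhibition of NADPH oxidases at the same time. There were 5 libraries in each of 3 groups, all incubated for 18 h. In the first group (GKT136901+LPL:VLDL) the cells received the hydrolysis products together with GKT136901 at 20 µM, which inhibits NOX1 and NOX4, enzymes that make reactive oxygen species from NADPH. The second group (LPL:VLDL) received the hydrolysis products alone. The third group received VLDL; its titles name pcDNA beside VLDL, with no further word on it. All groups therefore had VLDL in some form, and the line was grown in DMEM with fetal bovine serum. The labels give every library an experiment, numbered 2 to 6, and each experiment holds 1 library of each group.

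A microRNA is cut from the hairpin of a longer transcript, and 1 arm of the hairpin then guides Argonaute proteins to messenger RNAs, mainly through its seed, bases 2 to 8 from the 5′ end. In vertebrates the miR-99/100 and miR-125 genes lie in ancient clusters together with let-7 genes, while the miR-10 genes lie among the HOX genes, the transcription factors of body axis patterning. The miR-99/100 family is known for repressing MTOR, the kinase of growth control. The miR-125 family is known for its part in blood cell formation and for repressing TNFAIP3, an inhibitor of NF-kB signalling. Both families have been studied in macrophage activation.

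The mature 5p arms are shown because the shared letters decide which members act through the same seed and which can be told apart by counting. Capitals mark the seed; the sequences are those of RefSeq on GRCh38.p14.
miR-100-5p: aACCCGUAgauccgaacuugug
miR-99a-5p: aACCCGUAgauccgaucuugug
miR-99b-5p: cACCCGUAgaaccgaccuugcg
miR-10a-5p: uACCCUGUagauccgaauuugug
miR-125a-5p: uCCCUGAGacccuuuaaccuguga
miR-125b-5p: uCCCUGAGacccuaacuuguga
The miR-100, miR-99a and miR-99b arms share the seed ACCCGUA (3 of 2370 mature sequences in the RefSeq table, 0.127%). The 2 miR-125 arms share CCCUGAG, and the table also gives it to miR-4319, which is not a member. miR-10b-5p is named only. miR-100-5p and miR-99a-5p differ by the single substitution A16U (miR-100 base first, counted from the 5′ end), so their first 15 bases are the same. miR-10a-5p holds an 11-base run of miR-100-5p, guagauccgaa, which starts at base 7 in miR-10a-5p and at base 6 in miR-100-5p.

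The miR-99/100 and miR-125 genes pair up by locus. MIR100 (chr11:122152229-122152308, minus strand) and MIR125B1 (chr11:122099757-122099844, minus strand) lie 52384 bases apart within MIR100HG, a long non-coding host gene. MIRLET7A2 lies between them, 5635 bases from MIR100. On chromosome 21, MIR99A (chr21:16539089-16539169, plus strand) and MIR125B2 (chr21:16590237-16590325, plus strand) lie 51067 bases apart within the host gene MIR99AHG, with MIRLET7C 658 bases from MIR99A. On chromosome 19, MIR99B (chr19:51692612-51692681, plus strand) and MIR125A (chr19:51693254-51693339, plus strand) lie 572 bases apart within the span of SPACA6, a gene of sperm-egg fusion. MIR10A (chr17:48579838-48579947, minus strand) lies within the span of HOXB3, and MIR10B (chr2:176150303-176150412, plus strand) lies outside the spans of HOXD3 and HOXD4. The coordinates are of hg38, the build of the counts. Over the 15 libraries the hosts held few fragments, with 2 counts on MIR100HG, 1 on MIR99AHG, 7 on HOXB3 and 106 on SPACA6, and none of them passed the filter.

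Of the 8 genes, 4 could not be read or were near 0. MIR125A had 0 counts in every library, and all 86 bases of its hairpin lie in an exon of SPACA6 or of the antisense gene SPACA6-AS1. The neighbouring MIRLET7E, with all 79 bases in an exon of SPACA6-AS1, also had 0 counts in every library. Reads over exons of 2 genes were not counted, so these zeros give no level. MIR99B has 48 of 70 bases in such an exon, among them 6 of the 22 bases of miR-99b-5p and all 22 of miR-99b-3p, and it held 39 counts in 8 libraries (0 to 13 per library). MIR125B2 had 24 counts in 7 libraries (0 to 7 per library), and MIR10B had 99 counts in 13 libraries (0 to 16 per library).

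The miR-125b-5p arm has the same letters at MIR125B1 (chr11:122099809-122099830, minus strand) and MIR125B2 (chr21:16590253-16590274, plus strand). Reads that map to 2 places were not counted, so the count of either gene leaves out reads of the whole shared arm. The 3p arms differ and can be counted at their own gene; they are shown to make that difference visible, again with the seed in capitals.
miR-125b-1-3p: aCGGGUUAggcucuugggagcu
miR-125b-2-3p: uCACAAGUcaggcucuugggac
The counts are per hairpin gene, so the arm behind the 1970 counts of MIR125B1 is not known, and its level is that of a locus and not of miR-125b. The let-7a-5p arm is likewise shared by the 3 loci MIRLET7A1, MIRLET7A2 and MIRLET7A3.

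Total counts ran from 5076920 to 9757120 per library, the lowest in GKT136901+LPL:VLDL replicate 2. The libraries of experiment 2 stood apart: their TMM factors, which scale libraries to each other, were 1.16 to 1.34, against 0.765 to 1.03 in the other experiments. Of 18 HEK-293 genes, 8 had any count, 47 counts in all, and 10 were at 0 in every library, among them the epithelial keratins KRT8, KRT18 and KRT19. Of 18 genes of macrophages and other myeloid cells, 17 had a count, 6764 in all, with AIF1 at 0; CSF1R, the receptor for macrophage colony-stimulating factor, led with 1771. These are fragments of messenger RNA in small RNA libraries, and by these lists the data go against the HEK-293 label, so the cells are called here by their treatment only. The summed level of the myeloid genes was 74.0 to 94.7 TMM-scaled CPM (counts scaled to a common library total) in experiment 2 and 33.5 to 54.1 in the other experiments, and that of the HEK-293 genes was 0 to 1.14 in all libraries. By treatment the myeloid sum was 33.5 to 74.0 CPM with GKT136901+LPL:VLDL, 35.4 to 94.7 with LPL:VLDL and 40.5 to 82.0 with VLDL. The part that these lists play in the values below was not tested.

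MIR100 was the most abundant member over all libraries, with 168584 counts. In experiment 2 it stood at 3668 CPM with GKT136901+LPL:VLDL, 3346 with LPL:VLDL and 3027 with VLDL. In experiment 3 the 3 levels, in the same order of treatments, were 1104, 1037 and 1162 CPM, and in experiment 4 they were 1219, 1216 and 1035 CPM. Experiments 3 and 4 thus lay together, below every library of experiment 2. In experiment 5 the levels were 93.1, 78.4 and 64.3 CPM and in experiment 6 84.3, 86.5 and 76.0 CPM, so no library of experiments 5 and 6 came near those of the earlier experiments. In such bulk libraries, fewer cells that express a gene and less RNA per cell cannot be told apart. The mean of experiment 2 was 42.6 times that of experiment 5 and 40.7 times that of experiment 6. Of all counts on miRNA genes, MIR100 took 1.31 to 1.39% in experiment 2, 0.257 to 0.312% in experiments 3 and 4, and 0.0146 to 0.0192% in experiments 5 and 6.

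MIR125B1, the neighbour of MIR100 within MIR100HG, showed the same 3 tiers at a far lower level. Its counts in experiment 2 were 423 with GKT136901+LPL:VLDL, 400 with LPL:VLDL and 335 with VLDL, or 43.8, 34.7 and 29.4 CPM. In experiments 3 and 4 it had 48 to 167 counts per library, or 9.65 to 18.9 CPM, and in experiments 5 and 6 it had 2 to 12 counts, or 0.241 to 1.31 CPM. The 3 ranges did not overlap. With so few counts in the last experiments, the ratio of the experiment means, 38.7 for experiment 2 over 5 and 78.8 for experiment 2 over 6, is known only roughly.

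MIR99A, which carries the seed of MIR100 at another locus, was high in experiment 2 only. It stood there at 83.3 CPM with GKT136901+LPL:VLDL, 80.2 with LPL:VLDL and 76.7 with VLDL. In the 12 libraries of experiments 3 to 6 it ranged over 8.46 to 25.1 CPM, and the experiment means were 18.1, 18.3, 17.0 and 16.4 CPM. Both ends of that range came from single libraries, the low one from GKT136901+LPL:VLDL in experiment 6 and the high one from LPL:VLDL in experiment 4. Since miR-99a-5p and miR-100-5p differ by 1 base, a misread base can move a read between these genes, and the size of that transfer was not tested. MIR99A means differed little between experiments 3 and 4 and experiments 5 and 6, across which the MIR100 mean fell to 78.6 and 82.3 CPM, against 1101 and 1157 CPM in experiments 3 and 4.

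MIR10A ran the other way and was low in experiment 2 alone. Its level there was 178 CPM with GKT136901+LPL:VLDL, 156 with LPL:VLDL and 167 with VLDL. In the other 12 libraries it was 522 to 762 CPM, and no library of experiment 2 reached this range. The means of experiments 5 and 6 were 4.03 and 4.24 times that of experiment 2. This size depended on the scaling. The fitted log2 range between the highest and lowest experiment was 2.09 with TMM. It was 1.62 with total counts and 1.49 with TMM over miRNA genes. The ranges of MIR100, MIR125B1 and MIR99A were larger with both of these scalings than with TMM. MIR10B, the other miR-10 gene, stayed between 0 and 2.41 CPM in all experiments.

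**Figure D1:**
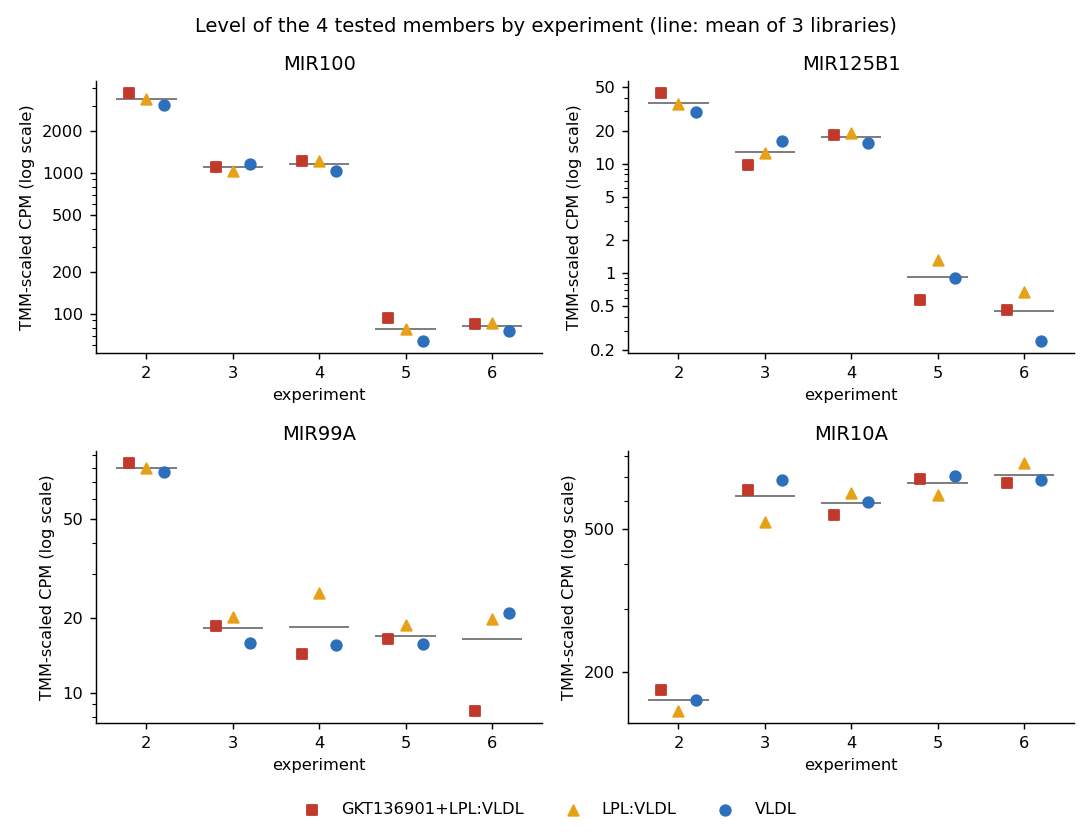
TMM-scaled CPM (log scale, a different range in each panel) of MIR100, MIR125B1, MIR99A and MIR10A in each library, by experiment; symbols give the treatment and the line the mean of the 3 libraries of an experiment. MIR100 and MIR125B1 sit in 3 tiers (experiment 2, experiments 3 and 4, experiments 5 and 6), and MIR99A is high and MIR10A low in experiment 2 only. The 3 treatments of an experiment lie close together for MIR100 and MIR10A. They spread more for MIR99A (8.46 to 21.0 CPM in experiment 6) and MIR125B1 (0.241 to 0.671 CPM in experiment 6).

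The order of the members changed with the experiment. Per 100 bases of hairpin, MIR100 was first in experiment 2 with a mean level of 4184 CPM, ahead of MIR10A at 152, MIR99A at 98.8 and MIR125B1 at 40.9. The MIR125B1 level leaves out reads of its whole 5p arm, which MIR125B2 shares, while the 5p arms of MIR100, MIR10A and MIR99A are not shared. Its place in these orders is therefore that of a locus and not of miR-125b. In experiments 3 and 4 MIR100 was still first, and in experiment 5 MIR10A led with 611 CPM per 100 bases, ahead of MIR100 at 98.2, MIR99A at 21.0 and MIR125B1 at 1.06. Experiment 6 had the order of experiment 5. The ranges of neighbours in these orders did not overlap in any experiment, except for MIR99A (17.7 to 31.0 CPM per 100 bases) and MIR125B1 (17.7 to 21.4) in experiment 4. In experiment 3 that pair lay close, with means of 22.4 and 14.5 CPM per 100 bases. Together the members made up 1.43 to 1.51% of the counts on miRNA genes in experiment 2 and 0.147 to 0.179% in experiments 5 and 6. The reads that were not counted for MIR125A, MIR99B, MIR125B1 and MIR125B2 are missing from these shares.

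An edgeR quasi-likelihood F test of the 4 experiment terms, in a fit with treatment and experiment, called 11.1% of the 4099 genes and 38.5% of the 291 tested miRNA genes at an adjusted p under 0.05 (Benjamini-Hochberg over all genes). It called 4 of the 4 tested members. Its p-values set the differences between experiments against the spread of the libraries within them. What differed between the experiments, such as cells or preparation, cannot be told apart by this test. MIR100 had an adjusted p of 4.03e-23 and a fitted range between the highest and lowest experiment of 5.42 on the log2 scale. MIR125B1 had the third lowest p (adjusted p = 3.49e-14, range 6.28), MIR10A the eighth (2.62e-11, range 2.09) and MIR99A came at rank 14 (9.39e-10, range 2.33). The median range was 1.38 over all tested genes and 1.15 over the tested miRNA genes. Leaving out the libraries of experiment 2 was chosen after these levels had been seen, so what it gives for MIR99A and MIR10A restates them. Without these libraries, MIR100 and MIR125B1 kept ranges of 3.88 and 5.23 and their calls (adjusted p = 4.8e-16 and 2.69e-09). MIR99A and MIR10A then had ranges of 0.16 and 0.26 and were not called (adjusted p = 0.989 and 0.718).

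**Figure D2:**
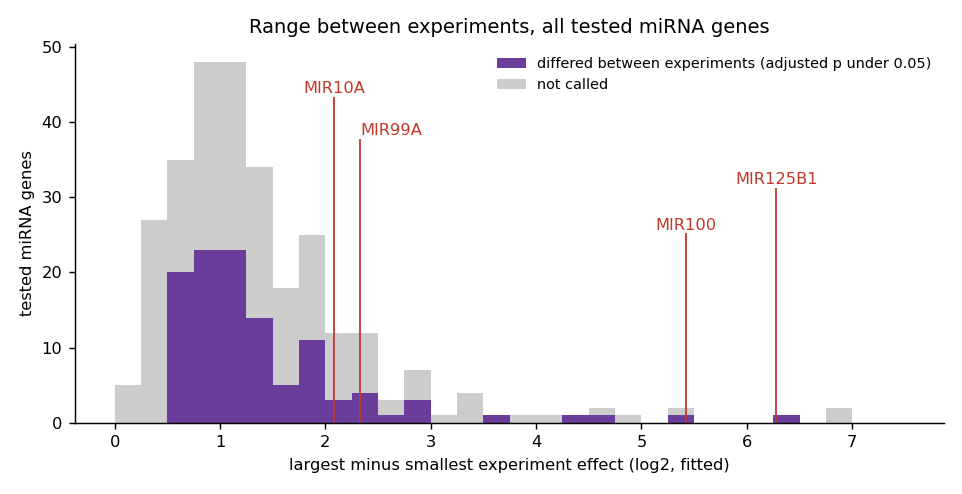
Number of tested miRNA genes (vertical axis) by the fitted range between the highest and lowest experiment (log2, horizontal axis), with genes called in the experiment test in purple and the others in grey; red lines mark the 4 tested members. MIR100 at 5.42 and MIR125B1 at 6.28 lie in the sparse right tail, while MIR10A at 2.09 and MIR99A at 2.33 lie nearer to the bulk of the miRNA genes, whose median is 1.15.

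Each experiment was also set against the one numbered before it, a contrast chosen after the levels had been seen, with p-values adjusted over all genes and all 4 steps in the same edgeR fit. Between experiments 3 and 2, 5.68% of genes were called, 4.49% higher and 1.2% lower in experiment 3. All 4 members were called: MIR100 differed by -1.59 (SE 0.13, adjusted p = 1.75e-09), MIR125B1 by -1.48 (SE 0.27, 0.000998), MIR99A by -2.16 (SE 0.24, 7.59e-07) and MIR10A by 1.89 (SE 0.14, 1.9e-10) on the log2 scale. No gene at all was called between experiments 4 and 3, the background being 0%. Between experiments 5 and 4, 2.24% of genes were called, 0.537% higher and 1.71% lower in experiment 5. MIR100 differed by -3.89 (SE 0.15, adjusted p = 9.64e-18) and MIR125B1 by -4.22 (SE 0.34, 8.41e-10), both lower in experiment 5. For MIR99A this difference was -0.08 (95% interval -0.57 to 0.41) and for MIR10A 0.18 (-0.10 to 0.45), neither of them called. None of the 4 was called between experiments 6 and 5, where the background was 0.195%, 0.122% higher and 0.0732% lower in experiment 6.

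The let-7 neighbours did not share the pattern of the members beside them. MIRLET7A2, between MIR100 and MIR125B1, averaged 34.9 CPM in experiment 2 and 93.1, 88.2, 96.5 and 95.8 CPM in experiments 3 to 6. It was higher in experiment 3 than in experiment 2 by 1.42 (SE 0.18, adjusted p = 5.39e-06, edgeR), a step at which both members around it fell, and between experiments 5 and 4 it differed by 0.12 (95% interval -0.24 to 0.48). MIRLET7C, beside MIR99A, averaged 144 CPM in experiment 2 and 236, 214, 232 and 248 CPM in experiments 3 to 6. On this scale that was the opposite direction to its neighbour. Only reads that map to 1 place are in these counts, which for MIRLET7A2 leaves out the shared 5p arm. The share of all counts on miRNA genes was 30.2 to 32.7% in experiment 2 and 30.8 to 37.5% in experiment 3. It was 36.0 to 41.2%, 41.8 to 48.7% and 42.2 to 44.5% in experiments 4 to 6. The direction of MIRLET7C may therefore depend on the scaling, which was not tested.

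Ratios of counts within a library need no scaling between libraries. MIR125B1 over MIR100 was 0.973 to 1.19% in experiment 2, 0.874 to 1.39% in experiment 3, 1.48 to 1.55% in experiment 4, 0.613 to 1.68% in experiment 5 and 0.317 to 0.775% in experiment 6. All 3 libraries of experiment 6 thus lay below every library of experiments 2 to 4, and the values of experiments 5 and 6 rest on 2 to 12 MIR125B1 counts per library. MIR99A over MIR100 was 2.27 to 2.53% in experiment 2 and 1.17 to 2.07% in experiments 3 and 4, and reached 17.7 to 24.5% in experiment 5 and 10.0 to 27.6% in experiment 6. MIR10A was 0.0465 to 0.0552 times MIR100 in experiment 2, 0.450 to 0.591 times in experiments 3 and 4, and 7.39 to 10.9 times in experiments 5 and 6. MIRLET7A2, with 0.919 to 1.27% of the MIR100 count in experiment 2, stood at 98.6 to 142% of it in experiments 5 and 6.

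**Figure D3:**
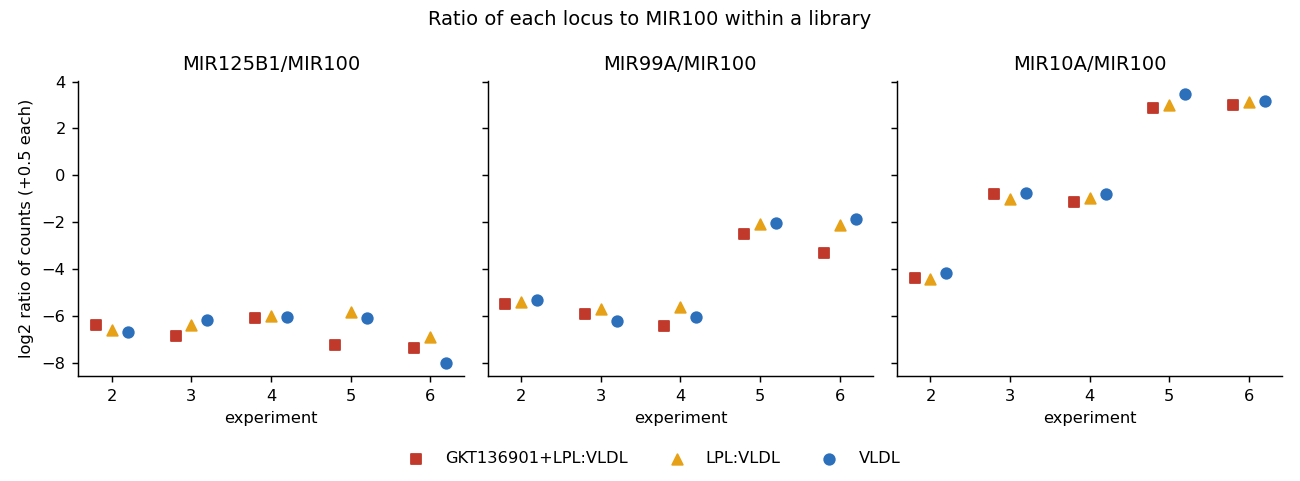
Log2 ratio of the counts of MIR125B1, MIR99A and MIR10A to those of MIR100 in each library (0.5 added to each count), by experiment; symbols give the treatment. The MIR125B1 ratio varies less than the other ratios; its libraries of experiment 6 lie below all those of experiments 2 to 4, and those of experiment 5 scatter widely, the MIR99A ratio is higher in experiments 5 and 6, and the MIR10A ratio rises at both steps.

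Over the 15 libraries, the levels of MIR100 and MIR125B1 had a Pearson r of 0.98 (log2 CPM), and MIR99A and MIR10A had -0.93. These are descriptions; the libraries share 5 experiments, and after removing the experiment means the 2 values were 0.19 and 0.16. MIR100 and MIR99A had 0.65, and -0.006 after removing the experiment means. The other genes most like MIR100 were MIR193A (r = 0.97), the transfer RNA gene TRC-GCA6-1 (0.93) and MIR184 (0.91), and the same 3 were most like MIR125B1 (0.98, 0.95 and 0.92). After removing the experiment means, these 3 had 0.49, 0.01 and 0.12 with MIR100. With MIR125B1 they had 0.49, 0.78 and -0.27. MIR193A averaged 414 CPM in experiment 2, 375 and 371 in experiments 3 and 4, and 228 and 208 in experiments 5 and 6, a smaller change than that of MIR100. MIR184 averaged 39.4 CPM in experiment 2, 14.4 and 18.7 in experiments 3 and 4, and 6.10 and 1.87 in experiments 5 and 6.

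For MIR99A the most similar genes were the protein-coding gene SH2D6 (r = 0.94), the small nucleolar RNA SNORD15A (0.92) and the Y RNA RNY1 (0.88), a component of Ro particles. RNY1 averaged 23143 CPM in experiment 2 and 5925 to 9179 CPM in experiments 3 to 6, and SH2D6 averaged 102 CPM in experiment 2 and 30.6 to 34.2 CPM in experiments 3 to 6. MIR10A went with the microRNAs MIR340 (0.98), MIR30E (0.98) and MIR374A (0.97). After removing the experiment means, these had 0.08, 0.04 and 0.77 with MIR10A. SH2D6, SNORD15A and RNY1 then had 0.28, 0.50 and 0.16 with MIR99A. MIR30E, one of the abundant miRNA genes of these libraries, averaged 21326 CPM in experiment 2 and 37792 to 41567 CPM in experiments 3 to 6.

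The treatment comparisons asked whether the hydrolysis products, or GKT136901 on top of them, moved these miRNA genes. Over 5 libraries each, MIR100 averaged 1234 ± 1463 CPM with GKT136901+LPL:VLDL, 1153 ± 1334 with LPL:VLDL and 1073 ± 1208 with VLDL (SD). MIR10A averaged 546 ± 213, 539 ± 231 and 568 ± 228 CPM in the same order, MIR99A 28.2 ± 31.0, 32.8 ± 26.6 and 29.0 ± 26.8 CPM, and MIR125B1 14.5 ± 17.9, 13.6 ± 14.1 and 12.4 ± 12.2 CPM. The groups overlapped for every member, and the SDs hold the differences between experiments.

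The edgeR fit without the experiment called 0% of genes in each of the 3 comparisons, and none of the 4 members. At an unadjusted p under 0.05 it had 87 genes for GKT136901+LPL:VLDL against LPL:VLDL, 91 for GKT136901+LPL:VLDL against VLDL and 77 for LPL:VLDL against VLDL, with no member among them. For MIR100 the log2 difference between GKT136901+LPL:VLDL and LPL:VLDL was 0.10 (95% interval -1.71 to 1.91), and that between LPL:VLDL and VLDL was 0.10 (-1.71 to 1.91). MIR10A, the least variable member, had 0.02 (-0.72 to 0.75) and -0.08 (-0.81 to 0.66). For MIR100 and MIR125B1 these intervals hold a change of 1 on the log2 scale in either direction.

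With the experiment as a block, which compares the 3 libraries of the same experiment, the fit called 0% of genes in both comparisons of GKT136901+LPL:VLDL, and 0.0244% (1 gene, which is no member) for LPL:VLDL against VLDL. The intervals of the members were narrower. Between LPL:VLDL and VLDL the log2 difference was 0.13 for MIR100 (95% interval -0.08 to 0.34), 0.18 for MIR125B1 (-0.31 to 0.67), 0.25 for MIR99A (-0.13 to 0.62) and -0.08 for MIR10A (-0.30 to 0.13). Between GKT136901+LPL:VLDL and LPL:VLDL it was 0.09 for MIR100 (-0.12 to 0.30), -0.15 for MIR125B1 (-0.64 to 0.34) and 0.05 for MIR10A (-0.17 to 0.26). MIR99A was lower with GKT136901+LPL:VLDL than with LPL:VLDL in 4 of 5 experiments, by a log2 difference of -0.42 (-0.80 to -0.04). This did not pass edgeR's test after adjustment over all genes (adjusted p = 1.00). The difference was -0.30 without experiment 4 and -0.26 without experiment 6, neither with an unadjusted p under 0.05 in that test. It was -0.55, -0.49 and -0.48 without experiments 2, 3 and 5, each with an unadjusted p under 0.05. None of these passed after adjustment.

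Between GKT136901+LPL:VLDL and VLDL the blocked log2 difference of MIR100 was 0.22 (0.01 to 0.43). It was higher with GKT136901+LPL:VLDL in 4 of 5 experiments. It did not pass edgeR's test after adjustment over all genes (adjusted p = 0.997). The difference was 0.12 with TMM factors from miRNA genes alone and 0.14 without experiment 5, neither with an unadjusted p under 0.05. The median of all tested miRNA genes in that comparison was 0.13 on the same scale. MIR125B1, MIR99A and MIR10A had 0.03, -0.17 and -0.04 in the same comparison. The comparisons share libraries: VLDL stands in 2 of them, and so does each other group.

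**Figure D4:**
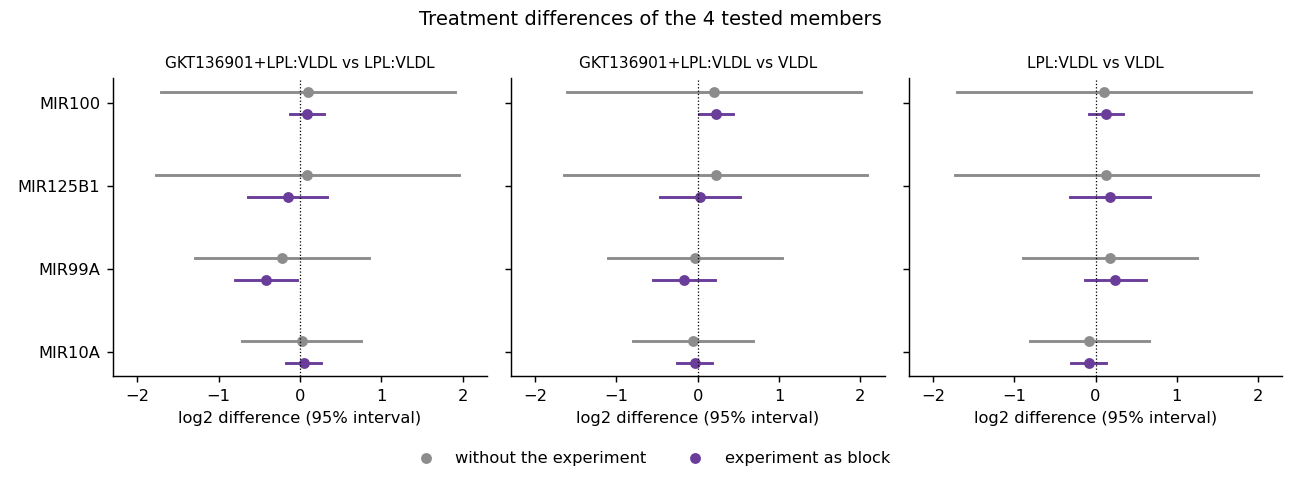
Log2 difference with 95% interval for MIR100, MIR125B1, MIR99A and MIR10A in the 3 treatment comparisons, from the edgeR fit without the experiment (grey) and with the experiment as a block (purple). The purple intervals are narrower and all point estimates lie within 0.42 of 0; none passed the adjusted test.

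The ratio of 2 loci was tested between treatments by exact two-sided permutation of 5 against 5 libraries, which cannot give a p below 0.00794. For MIR99A over MIR100, the log2 ratio averaged -4.71 ± 1.71 with GKT136901+LPL:VLDL, -4.17 ± 1.90 with LPL:VLDL and -4.29 ± 2.17 with VLDL (SD, n = 5 each). For MIR10A over MIR10B it averaged 9.56 ± 1.10, 10.73 ± 2.44 and 9.07 ± 1.29 in the same order, where MIR10B had at most 16 counts. In 2 LPL:VLDL libraries MIR10B had 0 counts, and the 0.5 added to each count sets their ratios. With 5 added in place of 0.5, the log2 difference was -0.41 in place of -1.17 between GKT136901+LPL:VLDL and LPL:VLDL, 0.093 in place of 0.49 between GKT136901+LPL:VLDL and VLDL, and 0.50 in place of 1.66 between LPL:VLDL and VLDL. The 6 exact permutation tests had p = 0.198 to 0.770, and 0.752 to 0.770 after Benjamini-Hochberg adjustment, so no ratio passed the test; the spread within a group holds the differences between experiments. Paired by experiment, MIR99A over MIR100 was lower with GKT136901+LPL:VLDL than with LPL:VLDL in 5 of 5 experiments, by a mean log2 difference of -0.54. An exact two-sided sign-flip permutation over the 5 pairs gave p = 0.0625, the smallest that 5 pairs allow, and 0.375 after adjustment over the 6 ratio tests, so the paired design could not reach the threshold.

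Messenger RNA fragments of genes reported as targets of these families were counted in the same libraries, where they do not measure whole transcripts. Of 40 such genes, 35 had any count and 15 were tested. None of the 15 was called in any treatment comparison, with or without the experiment as a block (background 0% and at most 0.0244%). Their median log2 difference was -0.17 between GKT136901+LPL:VLDL and LPL:VLDL, -0.07 between GKT136901+LPL:VLDL and VLDL, and 0.09 between LPL:VLDL and VLDL, beside -0.02, -0.004 and 0.01 over all tested genes. The 4 with the lowest p were PRDM1, SMARCA5, BMF and MCL1. PRDM1, a transcriptional repressor and reported miR-125 target, averaged 0.626 ± 0.385 CPM with GKT136901+LPL:VLDL, 1.34 ± 0.81 with LPL:VLDL and 1.53 ± 1.27 with VLDL. MCL1, a survival protein, averaged 6.84 ± 1.21, 8.06 ± 1.76 and 8.63 ± 2.18 CPM in the same order. SMARCA5, a chromatin remodelling ATPase reported as a miR-99/100 target, averaged 3.13 ± 2.75, 2.89 ± 1.01 and 1.77 ± 1.33 CPM, and BMF, a promoter of apoptosis, 1.20 ± 0.41, 1.69 ± 0.78 and 0.957 ± 0.569 CPM.

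Between experiments, 2 of the 15 target genes were called by the edgeR F test, beside 11.1% of all genes. KLF4, a transcription factor and reported miR-10 target, had a range of 2.83 on the log2 scale (adjusted p = 0.00102), and TNFAIP3, an inhibitor of NF-kB signalling and reported miR-125 target, had 1.51 (adjusted p = 0.0306). None of the 4 tested miR-99/100 targets was called, SMARCA5 among them (range 1.66, adjusted p = 0.268).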

How the data were processed

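Small RNA was sequenced from 15 libraries, 5 in each of 3 treatment groups. The authors deposited raw counts of reads per gene. The submitters' processing notes list the tools STAR 2.7.11b, fastp 0.24.0, DESeq2 1.46, edgeR 4.4.2 and R 4.4.2, and the build hg38, giving no role to any of them. Per the file headers, featureCounts 2.0.6 counted reads over exons by gene with a RefSeq annotation, with no option set for multiply mapped reads, reads over 2 genes or strand. Such reads are therefore missing, and a count belongs to a hairpin gene, not to an arm.

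From these counts, genes were kept by filterByExpr (minimum count 10, minimum total 15), which left 4099 genes with 99.7% of the counts. They were scaled by TMM and tested by the two-sided quasi-likelihood F test of edgeR 4.0.16 (with limma 3.58.1 in R 4.3.3), all 3 groups in 1 fit with 12 residual degrees of freedom, Benjamini-Hochberg over all genes, called at an adjusted p under 0.05. CPM values are TMM-scaled. The experiment test used a fit with group and experiment (8 residual degrees of freedom). The script was tested on simulated counts. Depth was 5076920 to 9757120 counts per library. Intervals cover the spread between libraries, and where the labels do not say that cultures were separate, that spread may be technical.

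Replicate numbers 1 to 5 are experiments 2 to 6 in the labels' batch field, so they pair the libraries; deviations from group means had r = 0.066 to 0.378 in the 15 same-number pairs, with a median of -0.070 in other pairs. Libraries within a group differed by more than sampling noise (a chi-square of 8.59 to 167 for each degree of freedom). Alternatives were the replicate block, DESeq2 1.42.0, limma-voom, other scalings and filters, and leaving out libraries. The genes named were the 8 members, their cluster neighbours and hosts, up to 4 reported targets with the lowest p, and the 3 genes with the highest correlation to each tested member. The members and lists were chosen with earlier results of these data known. A ratio of MIR99B to MIR125A was planned and not computed, because MIR125A had 0 counts throughout. Mature sequences and coordinates are from RefSeq (GRCh38.p14).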

Additional observations from a re-analysis of the deposited data

Results flagged for a closer look

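Within a treatment group, 1 library stood far from the other 4 in 5 of the 12 member and group combinations examined (gap over range above 0.71, which chance passes in about 1 of 20 groups). The groups share the experiments, so the combinations are not independent and their number cannot be set against that rate. All 5 restate the levels of experiment 2 given above. MIR99A was highest in replicate 1, the library of experiment 2, in all 3 groups, at 83.3 CPM with GKT136901+LPL:VLDL (next 18.5), 80.2 with LPL:VLDL (next 25.1) and 76.7 with VLDL (next 21.0). MIR10A was lowest in replicate 1 at 178 CPM with GKT136901+LPL:VLDL (next 549) and at 167 with VLDL (next 596). These libraries also had the highest myeloid sums and TMM factors, and the part of either was not tested.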

How the results depend on the processing

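The main fit called 0 genes in each treatment comparison under every other filter and scaling tried without the experiment, and without each library in turn. With the replicate block, 1 gene was called for LPL:VLDL against VLDL (0 to 2 without 1 experiment), 5 with DESeq2 and the block and 2 with voom and the block; for GKT136901+LPL:VLDL against VLDL, DESeq2 with the block called 2 and voom with the block 1. No member was among the genes called in any of these fits. The experiment test called 145 to 506 genes without 1 library or 1 experiment, 145 of them without experiment 2. All the alternatives that changed the sign of a member's treatment difference concerned differences that no test called. MIR125B1, with few counts in experiments 5 and 6, had a log2 difference between GKT136901+LPL:VLDL and LPL:VLDL of -0.15 with the block, with the block in DESeq2 and with the block and TMM over miRNA genes, and -0.44 with voom, against 0.088 in the main fit and 0.045 with voom and the block; the blocked value was -0.40, -0.11, -0.20, -0.030 and -0.13 without experiments 2, 3, 4, 5 and 6. Between GKT136901+LPL:VLDL and VLDL it was 0.22 in the main fit, 0.027 with the block, 0.022 with the block in DESeq2 and 0.17 with voom and the block, but -0.092 with voom alone, -0.079 with the block and TMM over miRNA genes, and -0.24, -0.046 and -0.025 with the block and without experiments 2, 4 and 6. The MIR100 difference between LPL:VLDL and VLDL was -0.0088 with TMM over miRNA genes. That of MIR10A between GKT136901+LPL:VLDL and LPL:VLDL was -0.0095 with the block without experiment 3, and that of MIR99A between GKT136901+LPL:VLDL and VLDL was 0.071 with the block without experiment 6. Leaving out 1 library in the unblocked fit removed it from its experiment and moved the log2 differences widely. Between GKT136901+LPL:VLDL and LPL:VLDL they ran from -0.87 to 0.99 for MIR100, -0.93 to 0.76 for MIR125B1, -1.17 to 0.41 for MIR99A and -0.21 to 0.25 for MIR10A. Between GKT136901+LPL:VLDL and VLDL they ran from -0.78 to 1.02, -0.81 to 0.76, -0.99 to 0.70 and -0.30 to 0.17 in the same order of members, and between LPL:VLDL and VLDL from -0.82 to 0.94, -0.57 to 0.70, -0.46 to 0.93 and -0.32 to 0.16. The log2 ratio MIR10A/MIR10B differed by -0.065 to 0.88 between GKT136901+LPL:VLDL and VLDL, and MIR99A/MIR100 by -0.98 to 0.18 between GKT136901+LPL:VLDL and VLDL and by -0.41 to 0.72 between LPL:VLDL and VLDL. Total counts in place of TMM moved the median of all genes to -0.11 for LPL:VLDL against VLDL, and TMM over miRNA genes moved it to -0.11 for GKT136901+LPL:VLDL against VLDL. All 4 members kept their calls in the experiment test under every scaling, filter and leave-out run, except MIR99A and MIR10A without experiment 2. Low counts limit MIR125B1 in experiments 5 and 6, and MIR99B, MIR10B and MIR125B2 throughout. For MIR99B, MIR125B1 and MIR125B2 the counts also leave out reads over exons of 2 genes or reads that map to 2 places. More depth would not recover those reads. The planned ratio of MIR99B to MIR125A was not run, since MIR125A had 0 counts.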
